A study of Mus musculus with 6 samples.

Results

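The germline and meiosis genes described here are 46 genes that normally work in the germ line: the piRNA pathway of the male germ cell, the synaptonemal complex and chromosome axis, the meiotic cohesins, meiotic recombination, and a further set of testis genes. They were chosen by name, as genes known for promoter DNA methylation in somatic cells, with earlier results of these data known. Shares of the members set beside those of all genes below therefore describe the list and are no independent support. All 46 have transcripts in the data, among 53458 genes in all, and 23 of them had enough reads for the fit of 22170 genes. The libraries hold RNA of AML blasts labelled Cebpa-/p30 Tet2+/+ (3 mice: 19, 23 and 24) or Cebpa-/p30 Tet2-/- (3 mice: 5, 7 and 8), with 1 library per mouse. The strain is C57BL/6 in the labels, and C57BL/6J for donor mice in the methods of the study.

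In both groups the long p42 form of CEBPA is lost and the p30 form is kept, and the labelled difference is in Tet2. Bone marrow of individual donor mice carrying a floxed Cebpa allele, the p30 allele, Mx1-Cre and either intact or floxed Tet2 alleles was transplanted into lethally irradiated adult female C57BL/6 J.SJL recipients. Deletion was induced weeks later with Poly(I)-Poly(C). Mx1-Cre is switched on by interferon and is not restricted to blasts. Marrow was taken from moribund recipients, and donor-derived (CD45.2+) cells without CD3, B220 and Ter119 were sorted, a gate that removes most lymphoid and erythroid cells but does not select blasts positively. The laboratory mice were female and 10 to 12 weeks old at the start of the experiments, and the age of each donor is not given in the sources used here.

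Germ cells use these genes to pair and recombine homologous chromosomes and to keep transposons silent. Most somatic cells keep them off, many through CpG methylation of the promoter, with E2F6, MGA and MAX, PRC1.6 and the DNA methyltransferases among the factors involved. TET2 is an enzyme that oxidizes 5-methylcytosine and so takes part in the removal of DNA methylation. The comparison asks how germ line transcripts differ between blasts with and without TET2. DNA methylation was not analysed here.

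The promoters of the 4 members on which the results below turn most are shown first, because their CG dinucleotides are the positions that DNA methylation can occupy. Each run covers 250 bases before and 50 bases after the transcription start of the RefSeq gene (GRCm38.p6), reads 5′ to 3′ on the strand of the gene, and has its CG dinucleotides in capitals. The windows are chr15:79605060-79605359 (minus strand) for Dmc1, chr11:4441033-4441332 (minus strand) for Hormad2, chr5:138280259-138280558 (plus strand) for Stag3 and chr12:111971309-111971608 (plus strand) for Tdrd9.
Dmc1: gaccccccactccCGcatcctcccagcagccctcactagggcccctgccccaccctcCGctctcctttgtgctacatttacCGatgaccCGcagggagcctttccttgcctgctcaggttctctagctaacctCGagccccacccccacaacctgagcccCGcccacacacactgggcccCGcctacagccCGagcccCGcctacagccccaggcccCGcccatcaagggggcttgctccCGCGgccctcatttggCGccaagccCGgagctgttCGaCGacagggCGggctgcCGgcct
Hormad2: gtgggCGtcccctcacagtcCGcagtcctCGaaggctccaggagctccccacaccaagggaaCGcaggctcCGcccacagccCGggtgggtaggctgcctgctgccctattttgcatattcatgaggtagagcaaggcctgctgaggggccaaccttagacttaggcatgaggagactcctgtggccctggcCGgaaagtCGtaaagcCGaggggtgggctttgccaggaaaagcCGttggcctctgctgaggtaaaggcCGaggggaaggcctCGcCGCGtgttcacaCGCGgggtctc
Stag3: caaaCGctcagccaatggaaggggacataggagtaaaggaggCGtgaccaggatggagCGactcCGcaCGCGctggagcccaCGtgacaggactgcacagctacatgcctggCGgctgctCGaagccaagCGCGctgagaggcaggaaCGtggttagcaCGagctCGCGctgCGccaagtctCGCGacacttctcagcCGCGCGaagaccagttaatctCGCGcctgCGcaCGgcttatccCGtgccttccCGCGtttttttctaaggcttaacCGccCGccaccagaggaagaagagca
Tdrd9: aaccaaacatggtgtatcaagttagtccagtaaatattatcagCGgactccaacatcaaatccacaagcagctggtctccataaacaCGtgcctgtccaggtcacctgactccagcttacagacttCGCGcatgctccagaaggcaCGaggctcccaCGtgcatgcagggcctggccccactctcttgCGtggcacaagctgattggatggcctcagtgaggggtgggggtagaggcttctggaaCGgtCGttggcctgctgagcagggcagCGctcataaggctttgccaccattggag
The windows hold 18 CG dinucleotides for Dmc1, 16 for Hormad2, 30 for Stag3 and 10 for Tdrd9. All 4 counts lie above the median of 7 (quartiles 3 and 20) over the 32851 promoter windows of the RefSeq table.

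CG-rich windows were the rule among the members. RefSeq windows were matched by symbol for 39 of the 46 genes (53 windows, since some genes have several starts), and Rnf17, Piwil2, Tdrd6, Spo11, Majin, Meiob and Tex15 were not matched. The 53 windows had a median of 19 CG dinucleotides (quartiles 11 and 25). The median was 20 in the 18 windows of members without a read and 18 in the 18 windows of members with a mean of at least 1 CPM (TMM-normalized counts scaled to library size), so the count of CG dinucleotides did not separate silent members from transcribed ones. The letters CACGTG, the E-box to which MAX heterodimers can bind (a palindrome, so 1 search covers both strands), were in 21 of 53 windows (39.6%), against 7.15% of all windows. They were in 10 of the 18 windows of silent members, and in 4 of the 18 windows of members with at least 1 CPM. The windows of Stag3 and Tdrd9 hold 1 and 2 such matches, and those of Dmc1 and Hormad2 hold 0. The letters TCCCGC, searched on both strands as part of an E2F site, were in 18 of 53 windows (34.0%), against 19.98% of all windows. Both motifs contain a CG dinucleotide, a match is no proof of binding, and windows of 1 gene can overlap.

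**Figure D1:**
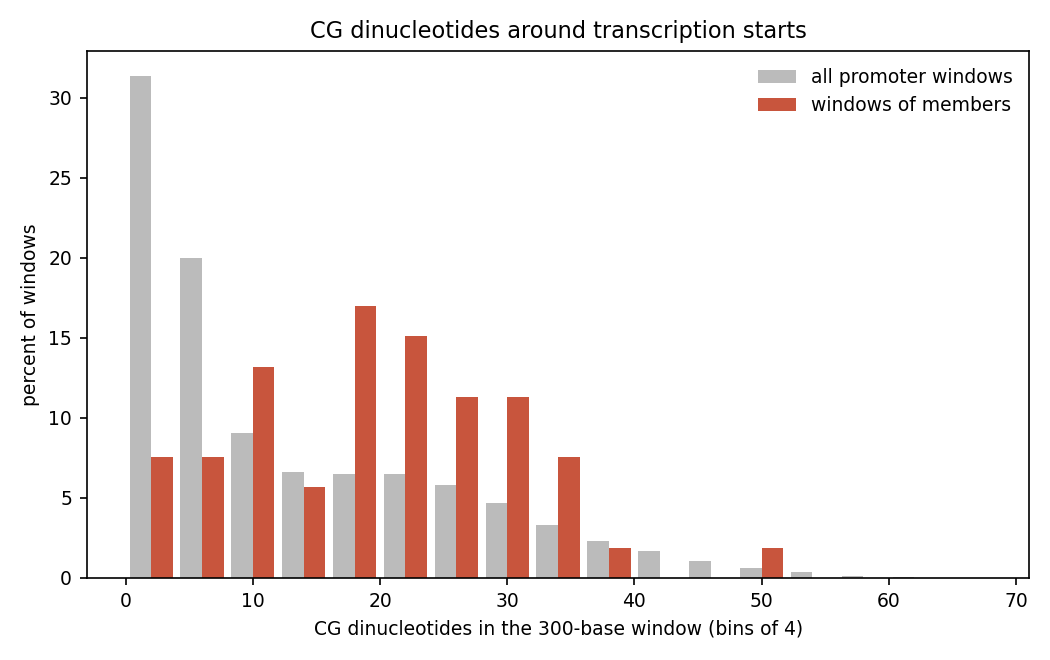
Percent of 300-base promoter windows (y axis) by number of CG dinucleotides (x axis, bins of 4), for the 32851 windows of the RefSeq table (grey) and the 53 windows of 39 members (red). The members' windows lie higher, with a median of 19 against 7.

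The libraries held between 13031326 and 32844125 estimated reads in genes, the deepest being Tet2-/- mouse 5. The level of Tet2 itself was 73.6, 79.5 and 98.4 CPM in mice 19, 23 and 24 and 111, 79.4 and 96.7 CPM in mice 5, 7 and 8, and since a total over the gene includes exons outside a deleted part it does not check the labels. The cells had the transcripts of myeloid blasts, with Mpo at 4110 to 4527 CPM in Tet2+/+ and 2662 to 3394 CPM in Tet2-/- libraries and Ptprc, which encodes CD45, between 762 and 1221 CPM. Markers of testis germ cells outside the members (Acrv1, Prm1, Prm2, Tnp1, Odf1, Zpbp, Ldhc and Pgk2) summed to between 1.55 and 2.64 CPM, all but Zpbp and Ldhc at or near 0. Over all genes, edgeR's quasi-likelihood test called 10 of 22170 genes (0.0451%) at a Benjamini-Hochberg adjusted p under 0.05, and all 10 were lower in Tet2-/- blasts. With 3 libraries against 3, an exact two-sided permutation test cannot go below p = 0.1. In bulk RNA, fewer cells with a transcript and less transcript per cell cannot be told apart.

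Most of the 46 genes were silent or nearly so. No read was found in any library for 14 of them: Stk31, Mael, Tdrd1, Tdrd6, Mov10l1, Asz1, Sycp1, Syce1, Syce3, Hormad1, Mei1, Tex19.1, Tex19.2 and Slc25a31. A count of 0 allows up to 3 reads, which is 0.0949 CPM in the deepest library and 0.211 CPM in the shallowest. A further 9 (Dazl, Stra8, Rnf17, Tdrd12, Piwil1, Sycp3, Tex12, Smc1b and Majin) had at most 6 reads in a library and 11 in all, and were not tested. Of the 23 tested, 9 had a mean under 1 CPM and 14 had a mean of at least 1 CPM. The piRNA pathway had 7 of 14 members in the fit, the synaptonemal complex and axis 3 of 9, the meiotic cohesins 2 of 3, the recombination genes 4 of 6, the other testis genes 5 of 8 and the germ cell determinants 2 of 6.

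The number of members with at least 1 read was 25, 27 and 28 for mice 19, 23 and 24, whereas it was 28, 22 and 22 for mice 5, 7 and 8. At the depth of the smallest library the expected numbers were 24.4, 25.9 and 28 in Tet2+/+ mice and 24.8, 20.4 and 20.7 in Tet2-/- mice. Mice 7 and 8 had the fewest members detected, and mouse 5 lay within the range of the Tet2+/+ mice. The summed level of all 46 genes was 282, 193 and 400 CPM in mice 19, 23 and 24 and 207, 213 and 135 CPM in mice 5, 7 and 8, and these ranges overlap.

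**Figure D2:**
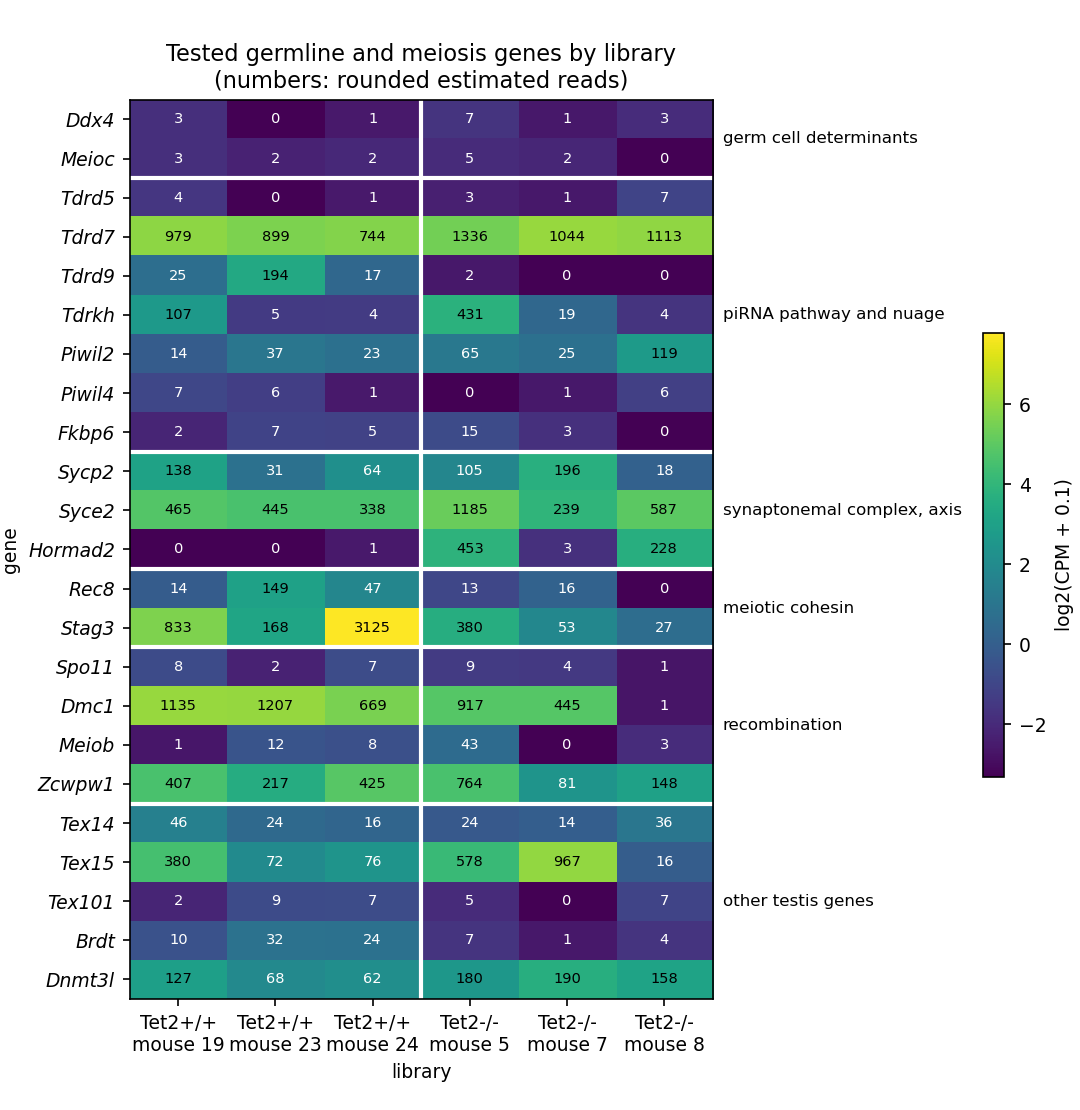
Level of the 23 tested members (rows, grouped by role) in each of the 6 libraries (columns) as log2(CPM + 0.1), with the rounded estimated reads printed in each cell. Of the members with a mean of at least 1 CPM, Tdrd7 and Syce2 are the most even across mice, while Dmc1, Hormad2, Tdrd9, Rec8, Stag3, Tdrkh and Tex15 change by mouse.

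Between genotypes, edgeR called 0 of the 23 tested members (adjusted p under 0.05). Without adjustment, at p under 0.05, 4 members were lower in Tet2-/- blasts (Tdrd9, Brdt, Stag3 and Rec8; 17.4% of 23, against 5.12% of all genes tested) and 1 was higher (Hormad2; 4.35%, against 3%). Of the 1135 and 664 genes of all that passed so, 63.1% were lower, against 85.8% (1565 and 258) when scaled by library size only, where the members stayed at 4 lower and 1 higher. Without mouse 24 the members' count of 5 was 3. DESeq2, run as an alternative, called 3 lower (Tdrd9, Brdt and Stag3) and 1 higher (Hormad2) of the 18 members to which it gave an adjusted p. These are 16.7% and 5.56%, against 1.83% lower and 0.331% higher over all genes. The median log2 fold change (Tet2-/- minus Tet2+/+, also below) of the 23 members was -0.24, against 0.00 over all genes, but 0.08 with the stricter filter filterByExpr and -0.64 without a filter, and of the 23, 12 were below 0 and 11 above. It was 0.04 without mouse 8 and -0.88 without mouse 5, so its sign depended on the members and the mice kept. The libraries of the genotypes did not overlap for 3 members with Tet2-/- below (Tdrd9, Brdt and Dmc1; 13.0%, against 7.94% of all genes) and 1 with Tet2-/- above (Hormad2; 4.35%, against 6.41%). That count of 4 was 8 without mouse 5, 7 without mouse 7, 7 without mouse 19 and 7 without mouse 23, since fewer libraries overlap less often. For Hormad2 the lack of overlap rested on 3 reads in mouse 7 against 1 in mouse 24, within the floor of 3 reads.

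**Figure D3:**
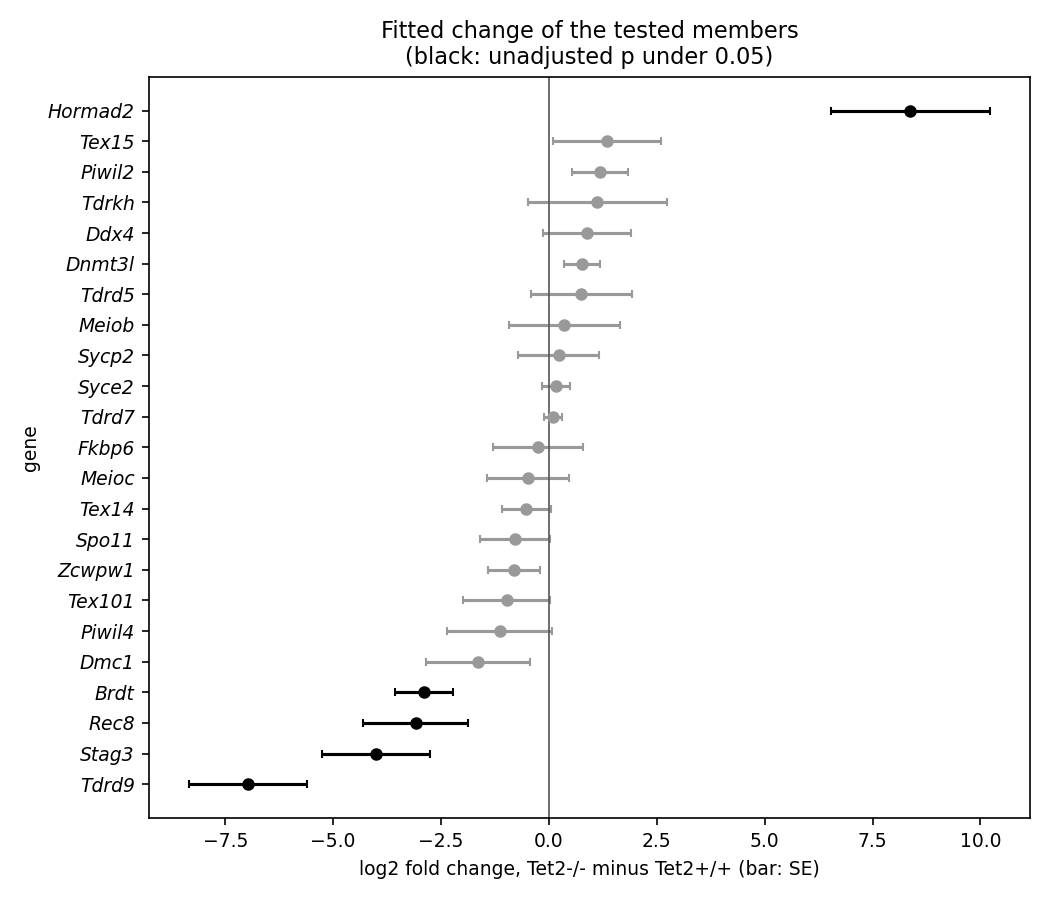
Fitted log2 fold change (x axis, Tet2-/- minus Tet2+/+, bars are standard errors from edgeR) of the 23 tested members (y axis), with those of an unadjusted p under 0.05 in black. Tdrd9, Stag3, Rec8 and Brdt lie at the lower end and Hormad2 at the upper end, and fits of genes with near-empty groups depend on the prior count.

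Among the piRNA genes, whose products make and use the small RNAs that silence transposons in germ cells, Tdrd9 differed most. Tdrd9 (chr12:111971559-112068854, plus strand) encodes an RNA helicase with a Tudor domain. It had 25, 194 and 17 reads in mice 19, 23 and 24 (1.5, 10.4 and 1.2 CPM), and 2, 0 and 0 reads in mice 5, 7 and 8 (0.0633, 0 and 0 CPM). All Tet2-/- libraries lay below all Tet2+/+ libraries, and mouse 23 held most of the reads. Summed over mice, the level was 156-fold higher in Tet2+/+ blasts, with an exact 95% interval from counting error alone of 42.7 to 1296. The edgeR log2 fold change was -6.97 (SE 1.36, unadjusted p = 0.00128, adjusted p = 0.245). The adjusted p was 0.00013 with DESeq2, and lay between 0.00013 and 0.521 over all alternatives. The fitted log2 fold change was -4.53 on length-scaled counts, -5.31 without mouse 23 and -9.19 without mouse 5. Nearly all reads (97.5%) were assigned to the full-length coding transcript Tdrd9-201.

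Tdrd7 (chr4:45965334-46034761, plus strand), a Tudor protein of the germ granule that is also used outside the germ line, was by contrast the most even member. Its level was 58.6, 48.1 and 52.4 CPM in mice 19, 23 and 24 and 42.3, 67.1 and 60.4 CPM in mice 5, 7 and 8. Averaged over all 6 libraries, it had the highest level per transcript length of the members, a mean of 31.7 TPM (transcripts scaled by length and library total). Its log2 fold change was 0.09 (SE 0.21, adjusted p = 0.937).

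Tdrkh (chr3:94413273-94434668, plus strand) encodes a Tudor protein of the outer mitochondrial membrane that binds PIWI proteins. It had 107, 5 and 4 reads in mice 19, 23 and 24 (6.40, 0.268 and 0.282 CPM) and 431, 19 and 4 reads in mice 5, 7 and 8 (13.6, 1.22 and 0.217 CPM). Mouse 19 and mouse 5 were high and the other 4 mice low, so that the highest mouse was 23.9-fold above the lowest among Tet2+/+ mice and 62.8-fold among Tet2-/- mice. The genotypes overlapped (log2 fold change 1.13, SE 1.61, adjusted p = 0.891), and without mouse 5 the direction turned (-1.69). Exons of Tdrkh share 2255 bases with Oaz3 on the opposite strand, for which 4 to 13 reads were counted, and the library kit does not mark strand.

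Piwil2 (chr14:70372477-70429383, minus strand), an Argonaute protein that binds piRNAs, was at 0.837, 1.98 and 1.62 CPM in mice 19, 23 and 24 and 2.06, 1.61 and 6.46 CPM in mice 5, 7 and 8. Mouse 8 was the highest and the other 5 overlapped (log2 fold change 1.18, SE 0.65, adjusted p = 0.684, and 0.31 on the log2 scale without mouse 8). All of its reads were on the full-length transcript Piwil2-201. The other PIWI genes were at the edge of detection. Piwil4 had 0 to 7 reads and Piwil1 0 to 3 reads in a library. Tdrd5 and Fkbp6, which act in the same granules, had 0 to 7 and 0 to 15 reads, and neither passed the test (adjusted p = 0.901 and 0.975).

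Among the genes of the synaptonemal complex and the chromosome axis, Hormad2 had more than 3 reads in 2 mice only, both Tet2-/-. Hormad2 (chr11:4345814-4441105, minus strand) encodes a HORMA domain protein that marks unsynapsed chromosome axes. It had 0, 0 and 1 reads in mice 19, 23 and 24, and 453, 3 and 228 reads in mice 5, 7 and 8 (14.3, 0.193 and 12.4 CPM). Mice 5 and 8 were high, and mouse 7 was near the Tet2+/+ mice, 74.3-fold below mouse 5 (exact 95% interval 25.3 to 362) and 64.1-fold below mouse 8 (21.7 to 313). Summed over mice, the level was 517-fold higher in Tet2-/- blasts, with an interval of 92.5 to 20458 that covers counting error only. The fit gave a log2 fold change of 8.38 (SE 1.84, unadjusted p = 0.00249, adjusted p = 0.309 with edgeR). DESeq2 gave an adjusted p of 5.12e-05, within a range of 5.12e-05 to 0.842 over the alternatives. The fitted log2 fold change lay between 7.79 (without mouse 5) and 10.51 (without mouse 24). Its paralog Hormad1 had 0 reads in all 6 libraries. The reads were spread over 5 transcripts, of which the coding Hormad2-202 held 52.1% and an annotated decay transcript, Hormad2-201, 21.8%. Hormad2-202 starts at chr11:4440745, downstream of the promoter window printed above, whereas Hormad2-201, Hormad2-203 and Hormad2-205 start inside that window.

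Syce2 (chr8:84872111-84888221, plus strand), a central element protein of the synaptonemal complex, was transcribed in every mouse. Its level was 27.8, 23.8 and 23.8 CPM in mice 19, 23 and 24 and 37.5, 15.4 and 31.9 CPM in mice 5, 7 and 8 (log2 fold change 0.17, SE 0.33, adjusted p = 0.924). The genotypes overlapped, with mouse 5 highest and mouse 7 lowest. Sycp2 (chr2:178345293-178407685, minus strand), an axis protein, was at 8.25, 1.66 and 4.51 CPM in mice 19, 23 and 24 and 3.32, 12.6 and 0.977 CPM in mice 5, 7 and 8. The Tet2-/- mice spanned the whole range of the Tet2+/+ mice (log2 fold change 0.22, SE 0.93, adjusted p = 0.974). Their partners were absent or nearly so. Sycp1, Syce1 and Syce3 had 0 reads, Sycp3 had 0 to 2 and Tex12 0 to 3 reads in a library. No library held more than 3 reads of any of these 5.

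The meiotic cohesins were lower in Tet2-/- blasts as a sum, without overlap: 50.7, 17.1 and 223 CPM in mice 19, 23 and 24, and 12.5, 4.44 and 1.47 CPM in mice 5, 7 and 8. Stag3 made up most of it, but in mouse 23 Rec8 added 7.98 CPM to 8.99 CPM of Stag3. Stag3 and Rec8 each overlapped when taken alone. Stag3 (chr5:138280240-138312393, plus strand) encodes the meiosis-specific stromal antigen subunit of cohesin. It had 833, 168 and 3125 reads in mice 19, 23 and 24 (49.8, 8.99 and 220 CPM) and 380, 53 and 27 reads in mice 5, 7 and 8 (12, 3.41 and 1.47 CPM). Mouse 24 was 24.5-fold above mouse 23 of its own genotype, and mouse 5 lay above mouse 23, so the genotypes overlapped. The log2 fold change was -4.02 (SE 1.25, unadjusted p = 0.0144, adjusted p = 0.525 with edgeR), -2.37 without mouse 24 and -5.28 without mouse 5. The DESeq2 adjusted p was 0.00523, the lowest of its alternatives, which reached 0.9998.

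The reads of Stag3 were spread over 9 transcripts. The retained-intron transcript Stag3-203 held 30.4% of them and the coding transcripts together 46.5%, so less than the whole gene count stands for coding RNA. Rec8 (chr14:55618037-55625395, plus strand), the kleisin that replaces RAD21 in meiotic cohesin, had 14, 149 and 47 reads in mice 19, 23 and 24 (0.837, 7.98 and 3.31 CPM) and 13, 16 and 0 reads in mice 5, 7 and 8 (0.411, 1.03 and 0 CPM). With 3 reads taken for the 0 of mouse 8, mouse 23 was 49.0-fold above it. For the 149 reads against 0 as counted, the exact 95% interval of the ratio, from counting error alone, began at 39.4. The genotypes overlapped through mice 7 and 19 (log2 fold change -3.09, SE 1.23, unadjusted p = 0.0394, adjusted p = 0.604). The log2 fold change was -2.14 without mouse 23 and -4.13 without mouse 7. Smc1b, the remaining meiotic subunit, had 0 to 3 reads in a library.

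The cohesin subunits and regulators of dividing cells were all transcribed. All 9 were tested (Smc1a, Smc3, Rad21, Stag1, Stag2, Nipbl, Wapl, Pds5a and Pds5b), and edgeR called 0, with 0 at an unadjusted p under 0.05 and 0 called by DESeq2. Their median log2 fold change was 0.13. Rad21, the counterpart of Rec8, had the smallest p: 468, 272 and 290 CPM in mice 19, 23 and 24, and 473, 571 and 431 CPM in mice 5, 7 and 8 (log2 fold change 0.52, SE 0.26, adjusted p = 0.666).

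**Figure D4:**
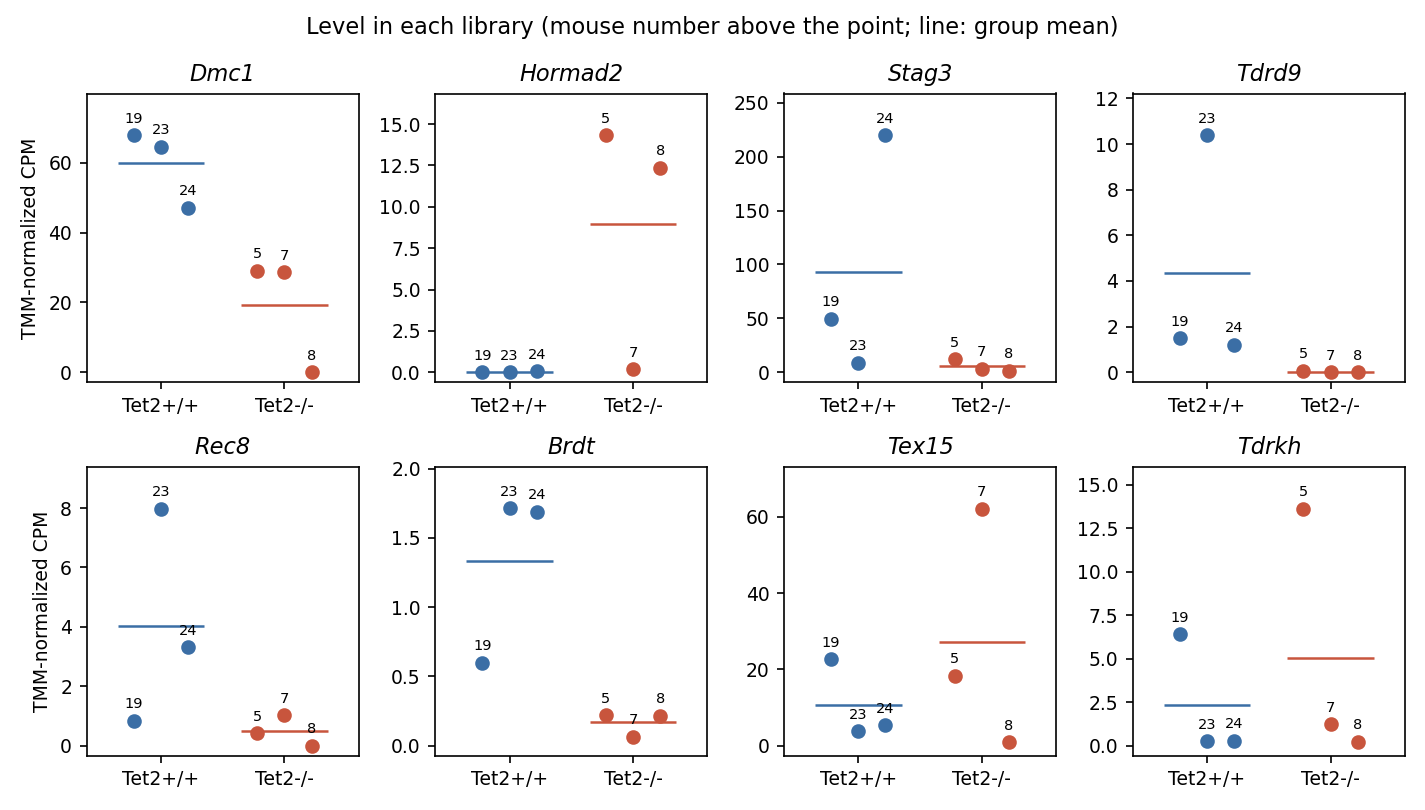
TMM-normalized CPM (y axis, linear, each panel with its own scale) of 8 members in the 3 Tet2+/+ (blue) and 3 Tet2-/- (red) libraries, with the mouse number above each point and a line at the group mean. Dmc1 was near 0 in mouse 8 and between 28.6 and 67.9 CPM in the other 5, and Hormad2 was high in mice 5 and 8 only.

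Of the recombination genes, Dmc1 was abundant in 5 mice and all but absent in the sixth. Dmc1 (chr15:79561497-79605109, minus strand) encodes the meiosis-specific recombinase that carries out strand exchange between homologous chromosomes. It had 1135, 1207 and 669 reads in mice 19, 23 and 24 (67.9, 64.6 and 47.1 CPM), and 917, 445 and 1 reads in mice 5, 7 and 8 (29.0, 28.6 and 0.0543 CPM). Every Tet2-/- library lay below every Tet2+/+ library. Mice 5 and 7 together were 532-fold above mouse 8, with an exact 95% counting interval of 95.4 to 21036. The log2 fold change was -1.64 (SE 1.21, unadjusted p = 0.216, adjusted p = 0.775), and it lay between -2.06 and -1.06 when single mice were left out. The exact permutation p was 0.1, the smallest this design allows.

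Per length, the members of highest mean level over all 6 libraries were Tdrd7 (31.7 TPM), Syce2 (26.5 TPM), Dmc1 (22.1 TPM) and Stag3 (21.1 TPM), in this order. In Tet2+/+ mice alone the order was Stag3 (mean 40.1 TPM, SD 47.8, n = 3), Dmc1 (34.99, SD 6.59), Tdrd7 (31.5, SD 4.34) and Syce2 (25.5, SD 0.668). The spread of Stag3 covers the means of the others, and Dmc1 and Tdrd7 lie within 1 SD of each other. In Tet2-/- mice it was Tdrd7 (31.8 TPM, SD 7.65, n = 3), Syce2 (27.4, SD 12.03), Dnmt3l (11.9, SD 4.46) and Dmc1 (9.15, SD 7.91), with Stag3 at 2.10 (SD 2.25). By CPM, Dmc1 was the highest of the 46 in mice 19 and 23. The coding transcripts Dmc1-202 and Dmc1-201, which both start at the promoter printed above, held 52.3% and 27.1% of its reads. Transcripts that start inside the gene, among them Dmc1-203 with 14.0%, were also without reads in mouse 8. The single read in mouse 8 was assigned to Dmc1-204.

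Zcwpw1 (chr5:137787798-137822621, plus strand), a reader of histone methylation that acts in meiotic break repair, was at 24.3, 11.6 and 29.9 CPM in mice 19, 23 and 24 and 24.2, 5.21 and 8.03 CPM in mice 5, 7 and 8. Mouse 5 lay among the Tet2+/+ mice (log2 fold change -0.81, SE 0.61, adjusted p = 0.781, and -1.74 on the log2 scale without mouse 5). Its exons share 468 bases with Pilra on the other strand, a gene with 1674 to 4978 reads, so some reads may belong to that gene. Spo11, which makes the meiotic double-strand breaks, had 1 to 9 reads in a library, and Meiob, a single-strand DNA-binding partner of recombination, had 0 to 43, the 43 in mouse 5. The sum of the 6 recombination and telomere genes did not overlap between genotypes (77.0 to 92.9 against 8.36 to 55.0 CPM), and Dmc1 and Zcwpw1 held nearly all of it.

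Among the other testis genes, Brdt was lower in Tet2-/- blasts in all 3 mice. Brdt (chr5:107331159-107387058, plus strand) is the bromodomain protein of the testis. It had 10, 32 and 24 reads in mice 19, 23 and 24 (0.598, 1.71 and 1.69 CPM) and 7, 1 and 4 reads in mice 5, 7 and 8 (0.221, 0.0643 and 0.217 CPM). The genotypes did not overlap, at low counts (log2 fold change -2.89, SE 0.67, unadjusted p = 0.0033, adjusted p = 0.324 with edgeR). The DESeq2 adjusted p was 0.0289, and the alternatives ranged from 0.0289 to 0.770. Of its 78 reads, 52.8% were on the full-length Brdt-201 and the rest on a shorter non-coding transcript.

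Tex15 (chr8:33516738-33585582, plus strand), needed for meiotic recombination and for transposon silencing in male germ cells, was at 22.7, 3.85 and 5.35 CPM in mice 19, 23 and 24 and 18.3, 62.2 and 0.868 CPM in mice 5, 7 and 8. The highest and the lowest mouse were both Tet2-/-, 71.6-fold apart (log2 fold change 1.34, SE 1.25, adjusted p = 0.825), and without mouse 7 the direction turned (-0.12). Tex14 (chr11:87405065-87555823, plus strand), a protein of the bridges between germ cells, was at 2.75, 1.28 and 1.13 CPM in mice 19, 23 and 24 and 0.759, 0.9 and 1.95 CPM in mice 5, 7 and 8 (log2 fold change -0.52, SE 0.57, adjusted p = 0.855). Tex101, a testis surface protein, had 0 to 9 reads in a library.

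Dnmt3l (chr10:78041947-78063622, plus strand), a cofactor of de novo DNA methyltransferases without activity of its own, was at 7.6, 3.64 and 4.37 CPM in mice 19, 23 and 24 and 5.69, 12.2 and 8.57 CPM in mice 5, 7 and 8. The genotypes overlapped (log2 fold change 0.76, SE 0.42, adjusted p = 0.688). Few reads were assigned to the long transcripts. Dnmt3l-203, of 1113 bases, held 67.7% of them and the retained-intron transcript Dnmt3l-207 29.8%, while Dnmt3l-201 held 1.07%. Dnmt3l-203 is annotated as coding and starts at chr10:78055335, within a RefSeq promoter window of the gene (78055085-78055384). As Salmon assigned the reads, a count of Dnmt3l in these blasts is thus mostly a count of shorter transcripts.

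The germ cell determinants were near the limit of detection in every mouse. Ddx4, the VASA helicase, had 0 to 7 reads in a library, and Meioc, which keeps germ cells in meiotic prophase, 0 to 5. Neither passed the test (adjusted p = 0.862 and 0.928). Dazl had 0 to 2 reads, Stra8, the gene that retinoic acid induces at meiotic entry, 0 to 3, Rnf17 0 to 1 and Stk31 0.

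The differences between mice of the same genotype were large. For the 14 members with a mean of at least 1 CPM, the standard deviation of log2(CPM + 0.1) between mice of a genotype, pooled over both genotypes, had a median of 1.35. Over the 8933 genes of the same range of mean level (1.46 to 54.8 CPM) the median was 0.388. Of the 14 members, 8 were above the 90th percentile of those genes (1.13): Tdrd9, Sycp2, Rec8, Stag3, Hormad2, Tex15, Tdrkh and Dmc1. Tdrd7 (0.27) and Syce2 (0.49) were the most even. The tests above estimate variation from the counts by their own models and do not use this value.

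**Figure D5:**
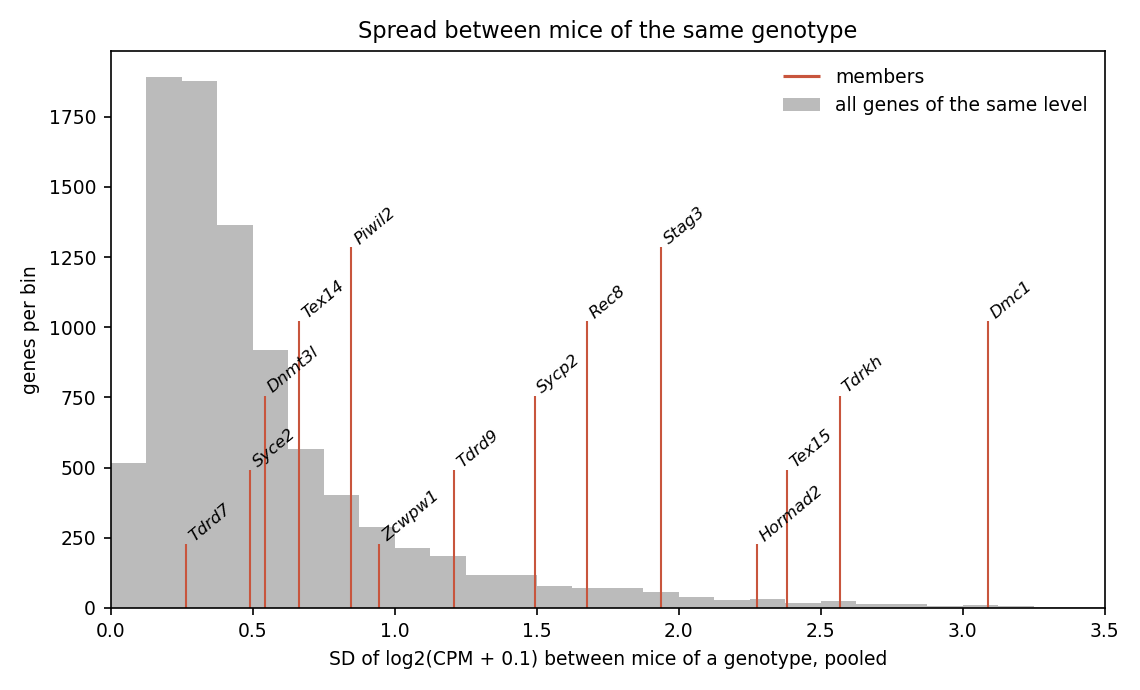
Number of genes (y axis) by the pooled standard deviation of log2(CPM + 0.1) between mice of the same genotype (x axis), for 8933 genes of the members' range of level (grey bars), with the 14 members as red lines whose heights only separate the labels. Dmc1, Tdrkh, Tex15, Hormad2 and Stag3 lie in the far tail, and Tdrd7 lies in the bulk.

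A rule chosen after the values had been seen describes the pattern in reads: at most 3 in 1 library and at least 100 in another. It held for 4 of the 13 members that reached 100 reads anywhere (30.8%: Tdrd9, Hormad2, Rec8 and Dmc1). It held for 255 of 11682 genes that reached 100 reads (2.18%), for 158 of 10594 protein-coding ones (1.49%), and for 231 of 7595 genes of the same range of level (3.04%). The rule held for 2 members without mouse 23 and for 2 without mouse 8. The empty libraries were not those of a single mouse. Tdrd9 was near 0 in mice 5, 7 and 8, Hormad2 in mice 19, 23, 24 and 7, and Rec8 and Dmc1 in mouse 8. No transcript of the 15 members with CPM values per library above shared at least 50% of its length at 95% identity with a transcript of another gene.

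The nearest transcribed genes (mean of at least 1 CPM, protein-coding) were compared in the same mice. Ddx17, 14.8 kb from Dmc1, was at 561, 586 and 664 CPM in mice 19, 23 and 24 and 645, 591 and 599 CPM in mice 5, 7 and 8, so it was not reduced in mouse 8. Fam227a, 4.47 kb on the other side, had 3.42 CPM in mouse 8, within its range of 2.52 to 6.04 CPM. Atp5mpl, 4.58 kb from Tdrd9, had 37.9 to 67.7 CPM in Tet2-/- mice and 41.3 to 54 CPM in Tet2+/+ mice. Mtmr3, 39.8 kb from Hormad2 on its promoter side, had 198 to 316 CPM in Tet2+/+ mice and 215 to 474 CPM in Tet2-/- mice. Lif, 73.3 kb on the other side, had 0.915 to 3.53 CPM in Tet2+/+ mice and 1.35 to 3.15 CPM in Tet2-/- mice.

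Gpc2, which lies 0.235 kb from Stag3, was at 22.6, 40.6 and 63.4 CPM in mice 19, 23 and 24 and 27.0, 31.2 and 11.5 CPM in mice 5, 7 and 8. It was highest in mouse 24 and lowest in mouse 8, as was Stag3, over a narrower range (log2 fold change -0.86, adjusted p = 0.688). Pvrig, 29.6 kb on the other side of Stag3, was lowest in mouse 24 (0.352 CPM) and highest in mouse 8 (2.44 CPM). Ipo4, 0.005 kb from Rec8, had 24 CPM in mouse 8, its highest value, where Rec8 had 0 reads. Irf9, 8.01 kb on the other side, had 52.6 to 56.1 CPM in Tet2+/+ and 41.2 to 51.1 CPM in Tet2-/- mice, lowest in mouse 8. Purg, 99.3 kb from Tex15, was highest in mouse 7 (4.89 CPM) and lowest in mouse 8 (0.705 CPM), as was Tex15. Ppp2cb, 14.0 kb on the other side, had 107 CPM in mouse 8, within its range of 81.9 to 145 CPM.

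Other genes of meiosis were examined by a list that does not include the members. Of 30 other meiosis genes, 18 were tested, edgeR called 0, and at an unadjusted p under 0.05 there were 1 lower (Rec114) and 1 higher (Trip13), near the shares over all genes (5.12% lower and 3% higher). Their median log2 fold change was -0.18. The genotypes did not overlap for 3 of the 18 with Tet2-/- below and 2 with Tet2-/- above, against 7.94% and 6.41% of all genes. The summed level of the list was higher in Tet2-/- libraries by a narrow margin, at 202 to 217 CPM in Tet2+/+ and 218 to 227 CPM in Tet2-/- libraries. Rec114, a partner of the break machinery, was at 2.99, 4.50 and 5.28 CPM in mice 19, 23 and 24 and 0.506, 0.386 and 0.597 CPM in mice 5, 7 and 8, without overlap (log2 fold change -3.08, SE 0.43, edgeR adjusted p = 0.108, DESeq2 adjusted p = 1.16e-07). Of its exon bases, 344 (26.9%) are shared with Nptn on the other strand, a gene with 1613 to 3834 reads, so reads in those bases cannot be assigned by strand. Trip13, an ATPase that also serves the spindle checkpoint of dividing cells, had a log2 fold change of 0.42 (SE 0.18, adjusted p = 0.609). Of 21 other germ cell and piRNA genes, 14 were tested, with 0 called by either tool and 2 lower at an unadjusted p under 0.05, Zbtb16 (log2 fold change -1.19, adjusted p = 0.539) and Gpat2 (-3.09, adjusted p = 0.604).

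The factors known to keep germ line genes silent in somatic cells were transcribed in all libraries. All 24 were tested and neither tool called any. At an unadjusted p under 0.05, 3 were lower in Tet2-/- blasts and 0 were higher, against 5.12% and 3% of all genes, and the median log2 fold change was 0.01. The genotypes did not overlap for 3 factors with Tet2-/- below and 3 with Tet2-/- above, against 7.94% and 6.41% of all genes. Dnmt3a, a de novo methyltransferase, was at 91, 114 and 122 CPM in mice 19, 23 and 24 and 62.0, 77.5 and 75.9 CPM in mice 5, 7 and 8 (log2 fold change -0.60, SE 0.18, adjusted p = 0.504). Mga, the scaffold of PRC1.6, was at 65.7, 91.7 and 74.9 CPM against 44.3, 44.2 and 60.2 CPM (log2 fold change -0.64, SE 0.20, adjusted p = 0.527). Both were without overlap. The factors with Tet2-/- above were Yaf2, a subunit of PRC1.6 (log2 fold change 0.45, SE 0.20), Wdr5 (0.37, SE 0.17) and the histone demethylase Kdm5c (0.22, SE 0.14), with adjusted p of 0.632, 0.632 and 0.735. The remaining factor with Tet2-/- below was Pcgf6, also a subunit of PRC1.6, at 5.57 to 6.88 CPM in Tet2+/+ and 2.44 to 5.53 CPM in Tet2-/- libraries (log2 fold change -0.44, SE 0.39, adjusted p = 0.815). Dnmt3b had a log2 fold change of -1.18 (SE 0.47, adjusted p = 0.604), with overlap.

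No marker of the other cell types examined was called by edgeR. DESeq2 called Jchain (adjusted p = 2.00e-07), Mzb1 (0.048), Cpa3 (0.000194), Ncr1 (0.00264) and the plasmacytoid dendritic cell marker Siglech (0.00102), all lower in Tet2-/- libraries, and the monocyte marker Ly6c2 (0.0248), which was higher. The summed levels of 3 of the lists did not overlap between genotypes. The 7 basophil and mast cell markers summed to 287 to 374 CPM in Tet2+/+ and 26.8 to 110 CPM in Tet2-/- libraries, mostly through Cpa3, while the defining Fcer1a was at 0 in 5 libraries and Ms4a2 overlapped (1.55 to 6.04 and 3.47 to 6.68 CPM). The 7 plasma cell markers summed to 144 to 204 and 32.3 to 62.0 CPM, mostly Jchain. The 8 T and NK cell markers summed to 37.3 to 43.0 and 12.9 to 37.2 CPM, so that the ranges all but touched. Cd3e, Cd3d, Cd3g and Cd2 were above 0 in all libraries and overlapped, whereas the NK cell marker Ncr1 did not (3.64 to 5.35 and 0.488 to 1.42 CPM). At an unadjusted p under 0.05, 2 of 5 tested basophil and mast cell markers, 3 of 7 plasma cell markers and 1 of 8 T and NK cell markers were lower, and 0 higher, against 5.12% and 3% of all genes. In the lists whose sums overlapped, 1 marker each of megakaryocytes (Itga2b, 23.7 to 43.8 and 6.95 to 21.7 CPM), erythroid cells (Alas2, 0.211 to 0.359 and 0 to 0.0643 CPM) and plasmacytoid dendritic cells (Siglech) was lower at that p and 1 of monocytes (Ly6c2) higher, all without overlap, and 0 of B cells, mature neutrophils and testis germ cells passed. Of the cell types, erythroid markers were highest in mouse 19 (140 CPM, against 4.22 to 15.2 CPM in the other 5), and mature neutrophil markers ranged from 8371 CPM in mouse 23 to 86514 CPM in mouse 7. Of the 10 myeloid blast markers edgeR and DESeq2 called 0, but Mpo and Cd34 were lower in Tet2-/- libraries without overlap (Cd34 170 to 310 and 32.1 to 132 CPM, log2 fold change -1.41, unadjusted p = 0.0251, adjusted p = 0.582) and Ms4a3 was higher without overlap (137 to 248 and 291 to 331 CPM, log2 fold change 0.69, unadjusted p = 0.0236, adjusted p = 0.58). Monocyte and macrophage markers summed to 2139, 2438 and 1508 CPM in mice 19, 23 and 24. They summed to 3511, 2437 and 4074 CPM in mice 5, 7 and 8, high in mice 5 and 8 as was Hormad2. Tex15 and Sycp2 were highest in mouse 7, as were mature neutrophil markers, but lowest in mouse 8. The part of these cells and markers in the values of Tdrd9, Hormad2, Stag3, Rec8, Brdt, Dmc1, Tex15 and Sycp2 was not tested.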

How the data were processed

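RNA-seq of sorted AML blasts (TruSeq RNA v2, unstranded; NextSeq 500) was analysed for 3 Tet2+/+ and 3 Tet2-/- mice. The authors quantified transcripts with Salmon 0.12.0 (per the submitters' processing notes, mm10 and GRCm38.p6) against Ensembl transcripts. The estimated counts were deposited by the authors per transcript and without normalization between mice. TPM, also deposited, are as Salmon scaled them, by effective length to 1 total per library.

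Estimated counts of 136288 transcripts were summed to genes of GENCODE M21 (GRCm38) (Python 3.11.15, pandas 2.3.3), then rounded, and 112 transcripts without a gene (at most 0.0416% of reads) were left out. Genes with a sum of at least 10 library-size-normalized counts were kept. The genotypes were compared by the quasi-likelihood test of edgeR 4.0.16 (R 4.3.3, TMM, no covariates, Benjamini-Hochberg over all genes tested, threshold 0.05), tested on simulated data beforehand. The standard error is the log2 fold change over the square root of F. The common biological coefficient of variation was 43.6%. CPM are TMM-normalized. Ratios at low counts have exact 95% intervals that, like the floor of 3 reads, cover counting error only. Expected detection at the smallest depth is hypergeometric.

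The alternatives were DESeq2 1.42.0, length-scaled counts made from TPM (with edgeR, and with DESeq2 as in the study), no filter, filterByExpr, library size only, RLE factors, robust dispersion, leaving out each mouse, and other measures of detection and summed level. The members, roles and lists were chosen with earlier results of these data known. CPM per library are given for tested members with a mean of at least 1 CPM, an unadjusted p under 0.05 or no overlap. Other gene lists name at most the 5 genes of smallest p, beside Pcgf6, Kdm5c and cell type markers, which were named after their values were seen. A gene of another list is not reported here. The rule on 3 and 100 reads, and the choice of promoters and neighbouring genes shown, were made after the values were seen. Copies were searched with BLAST+ 2.17.0 (95% identity, 50% of the transcript), and figures drawn with matplotlib 3.10.9. Labels give no batch, and nothing pairs the mice across genotypes.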

Additional observations from a re-analysis of the deposited data

How the results depend on the processing

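The count of all genes called at an adjusted p under 0.05 was 10 with edgeR, 385 with DESeq2, 5 with edgeR on length-scaled counts, 386 with DESeq2 on length-scaled counts, and 66 with no filter on low counts. It lay between 0 and 7 when single mice were left out. Of the members, edgeR called 0 under each of its alternatives, DESeq2 called 4 and DESeq2 on length-scaled counts 3. The count of members with an unadjusted p under 0.05 was 5, and between 3 and 6 with single mice left out. The count of members whose libraries did not overlap was 4, and between 4 and 8 with single mice left out. Scaling by library size only moved the median log2 fold change from 0.00 to -0.17 over all genes tested and from -0.24 to -0.43 over the members. With single mice left out, the members' median lay between -0.88 and 0.04. The cause of these differences was not tested, except that fewer libraries overlap less often by construction.

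Of 209 fits of the 15 named members under alternatives, 193 kept direction and side of the threshold, 7 passed it (all DESeq2) and 9 turned, in 5 genes. The log2 fold change of Tdrd7 was -0.084 with library size only, and between -0.049 (without mouse 7) and 0.26 with single mice left out. That of Tdrkh lay between -1.69 (without mouse 5) and 4.17, that of Syce2 between -0.10 (without mouse 5) and 0.47, and that of Tex15 between -0.12 (without mouse 7) and 2.55. Sycp2 turned with length-scaled counts (edgeR -0.15, DESeq2 -0.13), without mouse 23 (-0.19) and without mouse 7 (-1.13), and reached 0.86 without mouse 19. Hormad2 had no value under filterByExpr. The other 10, among them Tdrd9, Hormad2, Stag3, Rec8, Brdt and Dmc1, kept their direction in every alternative that gave a value.

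The mean number of members detected in Tet2+/+ and Tet2-/- libraries was 26.7 and 24, against 17.7 and 16.3 with more than 3 counts, and 12.3 and 10.3 with at least 1 CPM. The mean summed level was 291 and 185 CPM. As TPM it was 162 and 103, and without the most abundant member it was 238 and 128 CPM. The count of members with at most 3 reads in 1 library and at least 100 in another, 4, lay between 2 and 4 with single mice left out. No paired analysis was possible because the mouse numbers are not shared between genotypes. Depth limits the 23 members not tested, and the ratios of members with few reads in a library have wide counting intervals.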
